A study of Mus musculus with 8 samples.

Results

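Aminoacyl-tRNA synthetases and genes of amino acid supply were followed in RNA sequencing of marginal zone B cells (MZBs), B cells of the spleen that sit at the border of the white pulp and answer blood-borne antigen early. The set has 43 genes, chosen by symbol from the 23997 genes of the deposited table: 20 cytosolic synthetases, 14 mitochondrial synthetases (symbols ending in 2) and 9 genes that import or make amino acids and one-carbon units. The labels describe 8 libraries from C57BL/6 mice, 4 of ACKR3+ and 4 of ACKR3- MZBs, recorded as genotypes, with titles that name the groups by GFP; the sources used here do not give age, allele or sorting gate. ACKR3 is an atypical receptor that binds and removes the chemokine CXCL12. The table used here gives every gene 1 estimated fragment count in q1 and 1 in q2, the names of its 2 conditions, and nothing in the headers or labels ties either column to ACKR3+ or ACKR3- cells. Values are therefore given by column, with no direction relative to ACKR3, no replicate check and no p-value. A log2 ratio is that of q2 over q1 with a pseudocount of 1, and the figure after ± is the SD implied by the deposited variances. Whether these variances describe single libraries or condition means is not stated. Ratios are read where the higher of both columns reached 100 fragments, as it did for 42 members and for 9582 genes in all.

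Each synthetase joins 1 amino acid to its matching tRNA, the step that fixes the genetic code in translation. Nuclear genes encode separate enzymes for the cytosol and for the mitochondrial matrix, except that in mammals the Gars and Kars genes serve both compartments. When amino acids run short or the endoplasmic reticulum is stressed, phosphorylation of eIF2 favours translation of the transcription factor ATF4, which induces Asns, the serine synthesis enzymes, amino acid transporters and many cytosolic synthetases. Activated B cells and antibody-secreting cells are known for a high demand for this supply.

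Of all fragments (16877559 in q1, 16653774 in q2) the members held 0.355% and 0.361%. All 8 B cell markers listed and all 12 marginal zone markers were above 100 fragments. Ackr3 itself held 1030.0 fragments in q1 against 149 in q2. The columns also differed in markers of B cell states. Of the marginal zone markers, 11 of 12 were higher in q1 (summed fragments 159986 in q1 and 130294 in q2), led by Cd9 at -0.86 ± 0.19, while Rasgrp3 stood at 0.83 ± 0.18. Of the follicular markers, 7 of 9 were higher in q2 (21311 and 26193), led by Fcer2a at 1.73 ± 0.20 and Bach2 at 1.37 ± 0.20. All 9 germinal center markers above the minimum (740 and 3133 summed over 10), 10 of 11 plasma cell markers (32419 and 71104 over 13) and 24 of 25 cell cycle genes (11166 and 24616) were higher in q2. Most of the rise in the plasma cell sum lay in Igj, with 3234 and 33006 fragments. Irf4, the plasma cell marker toward q1, had 10113 and 8357. No marker in these lists was at 0 in both columns. In bulk RNA, fewer cells of a type and less RNA per cell cannot be told apart.

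The cytosolic synthetases were nearly level between the columns. All 20 passed the minimum, and none differed by 1.5-fold, a size that 3.39% of all genes reached toward q2 and 1.58% toward q1. In fact all 20 lay within 1.2-fold, as did 84.1% of all genes. Their median log2 ratio was 0.05, with a range from -0.19 to 0.26, against 0.0005 over all genes. By sign, 16 were higher in q2 and 4 in q1, where all genes divided 50.2% to 49.8%, and 3 had a ratio larger than 1 deposited SD, which 19.5% of all genes had.

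Among the cytosolic enzymes, those farthest toward q2 were the cysteinyl, asparaginyl, tyrosyl and tryptophanyl synthetases. Cars, on chromosome 7 (143557230 to 143600090 in GRCm38), held 522 fragments in q1 against 624 in q2, at 0.26 ± 0.22. Nars had 1716 and 1971 fragments, at 0.20 ± 0.18. Cars and Nars exceeded their SD, by a small margin. Yars had 667 and 763 fragments, at 0.19 ± 0.21, and Wars, which interferon also induces, had 840.5 and 949.6, at 0.18 ± 0.20; both stayed within it. At the other end, Vars, the valyl enzyme on chromosome 17 (35000987 to 35016322), held 9421 fragments in q1 against 8276 in q2, at -0.19 ± 0.18, or 0.0039 after the ratios were adjusted for GC content, transcript length and expression. Lars, the leucyl enzyme, which also senses leucine for mTORC1, had 1494 and 1405 fragments, at -0.09 ± 0.19.

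Several cytosolic synthetases (Eprs, Iars, Lars, Qars, Mars, Kars, Rars and Dars) are held in the multi-synthetase complex on the scaffolds Aimp1, Aimp2 and Eef1e1. The ratios of these 8 enzymes ran from -0.09 to 0.10, with a median of 0.03, and none exceeded its SD. Eprs, the fused glutamyl and prolyl enzyme, had 2598 and 2654 fragments, at 0.03 ± 0.18. Qars, the glutaminyl enzyme, had 2149 and 2108, at -0.03 ± 0.18. Both were level, as were the isoleucyl enzyme Iars, with 1740.3 and 1864 fragments, and the lysyl enzyme Kars, with 1775 and 1845. Mars, the methionyl enzyme, had 1148 and 1204 fragments, Rars, the arginyl enzyme, 1107 and 1125, and Dars, the aspartyl enzyme, 1700.5 and 1722. The scaffolds were as close: Aimp1 stood at 0.05 ± 0.21, Aimp2 at -0.04 ± 0.47 and Eef1e1 at -0.06 ± 0.25.

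The 12 cytosolic enzymes outside the complex had a median of 0.10 and the wider range, since Cars and Vars are among them. Farsa and Farsb, the catalytic and the partner subunit of the phenylalanyl enzyme, work as 1 tetramer. Farsa had 860.1 and 839 fragments, at -0.04 ± 0.20, and Farsb 1090.1 and 1092, at 0.0022 ± 0.20, so the subunits were level together. Aars, the alanyl enzyme, had 1366 and 1388 fragments, and Sars, the seryl enzyme, 1665 and 1708. Gars, the glycyl enzyme, had 1174 and 1266, Tars, the threonyl enzyme, 1139 and 1218, and Hars, the histidyl enzyme, 867 and 941, with ratios of 0.11 ± 0.19, 0.10 ± 0.19 and 0.12 ± 0.20. All of these stayed within their SD.

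**Figure D1:**
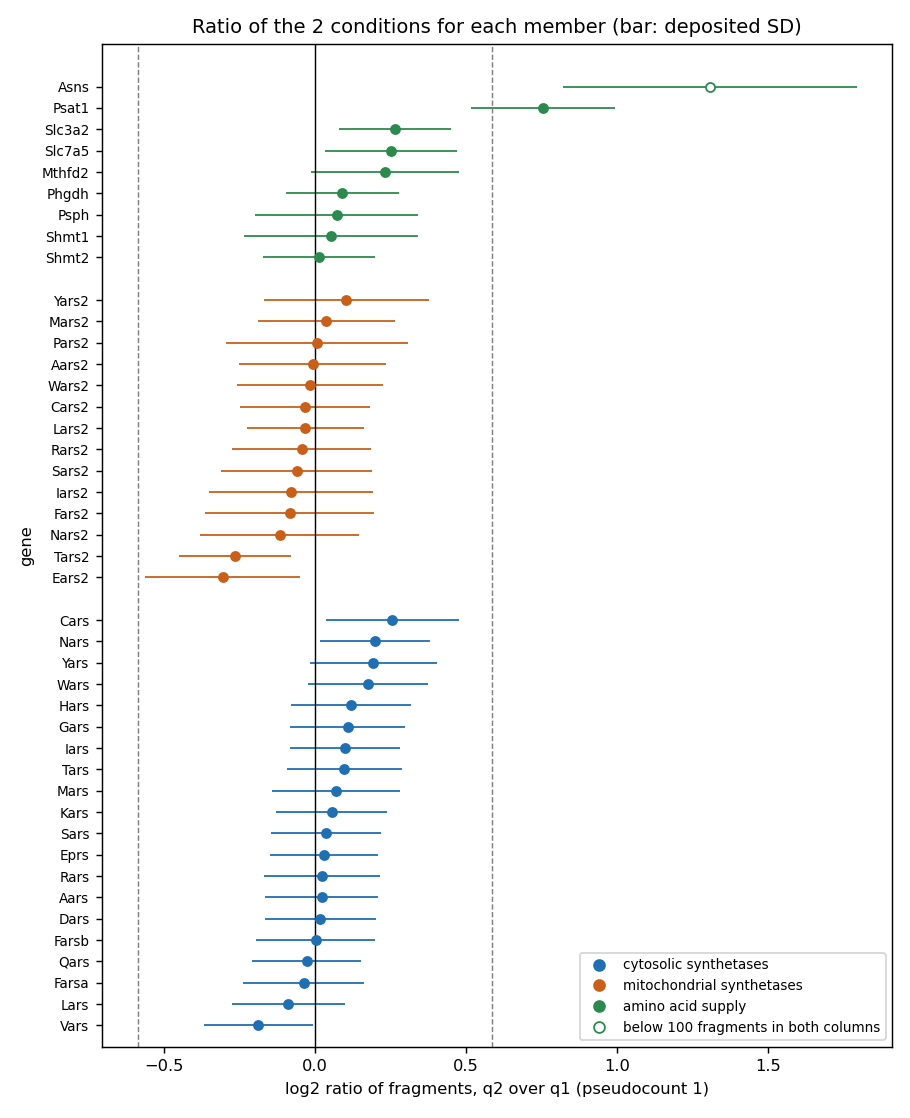
Log2 ratio of fragments, q2 over q1, for each of the 43 genes, with bars of 1 deposited SD; dashed lines mark 1.5-fold and the open circle marks Asns, below 100 fragments in both columns. The synthetases lie between -0.31 and 0.26, and Psat1 at 0.75 is the filled point past a dashed line.

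Mitochondrial synthetases were also close between the columns, on the other side of 0. Of 14, all above the minimum, 11 stood toward q1 and 3 toward q2, at a median of -0.04 and a range from -0.31 to 0.10. Over all genes, 49.8% were higher in q1. None of the 14 reached 1.5-fold. Within 1.2-fold lay 12 of 14, a share of 85.7% that is near the 84.1% of all genes. With the columns scaled to equal totals, 9 were higher in q1 and 5 in q2, since Aars2 and Wars2 lie so near 0.

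Ears2 and Tars2 were the mitochondrial members beyond their SD, as were 19.5% of all genes, and both were higher in q1. Ears2, which charges glutamate onto both the glutamate and the glutamine tRNA of mitochondria, held 342 fragments in q1 against 277 in q2, at -0.31 ± 0.26. Tars2, the threonyl enzyme (chromosome 3, 95739976 to 95760206), had 1677 and 1397 fragments, at -0.26 ± 0.18. No other mitochondrial member passed a ratio of 0.12 in size: next came Nars2, with 296 and 273 fragments, at -0.12 ± 0.26. Fars2, a single-chain enzyme unlike its cytosolic counterpart, had 234 and 221 fragments, at -0.08 ± 0.28, and Iars2 had 1401 and 1327, at -0.08 ± 0.27. The remaining enzymes toward q1 were Sars2 with 345 and 330.4 fragments, Rars2 with 464 and 450.4, Cars2 with 609.9 and 596, Wars2 with 383 and 378, and Aars2 with 372 and 369.9. Toward q2 stood Pars2 with 184 and 185 fragments, the fewest of the members above the minimum, Mars2 with 475 and 487, and Yars2 with 249 and 268, at 0.10 ± 0.27. Lars2, the leucyl enzyme, had 11510.2 and 11256 fragments, at -0.03 ± 0.19, or 0.07 after that adjustment.

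Set against its cytosolic counterpart for the same amino acid, the mitochondrial enzyme had the lower ratio in 14 of 15 pairings, in which Eprs and Fars2 are each used more than once. The differences (cytosolic minus mitochondrial log2 ratio) were small, with a median of 0.09 and a range from -0.06 to 0.36, and in 2 pairings the difference exceeded 1 SD of the difference. Tars and Tars2 differed by 0.36 ± 0.27, and Eprs and Ears2 by 0.34 ± 0.31. Nars and Nars2 came next, at 0.32 ± 0.32, and Cars and Cars2 at 0.29 ± 0.31. Lars and Lars2 were the pairing with the opposite order, at -0.06 ± 0.27. With 1 value per condition, whether cytosolic and mitochondrial enzymes differ between the conditions was not tested.

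**Figure D2:**
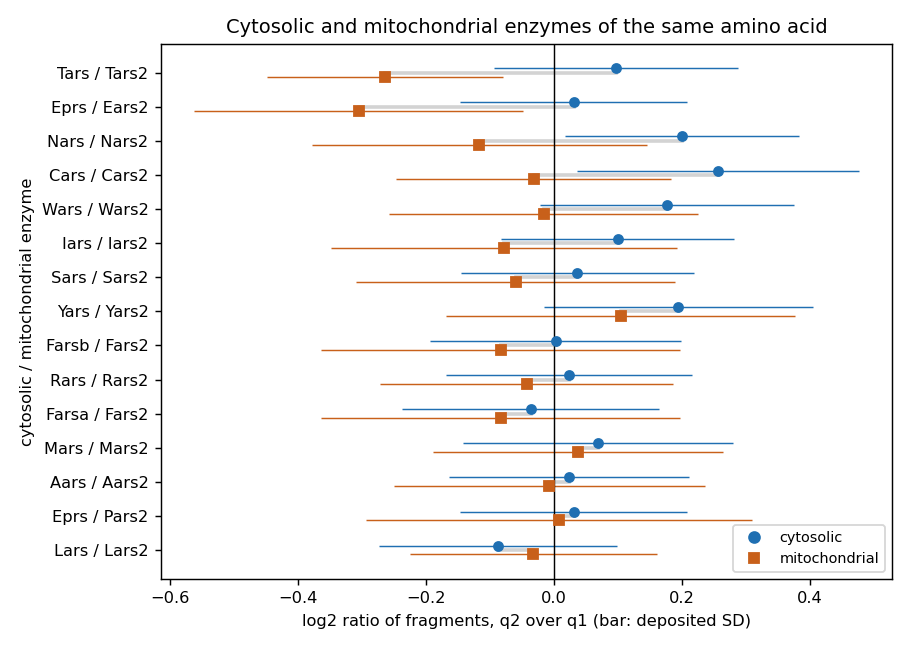
Log2 ratio of fragments, q2 over q1, of the cytosolic (circle) and mitochondrial (square) enzyme for each amino acid, with bars of 1 deposited SD, ordered by their difference. The circle lies to the right of the square in 14 of 15 rows, and the bars of each pairing overlap.

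The levels of the enzymes differed far more between genes than between conditions. Per kb of the longest transcript, the median level in q1 was 448 fragments for cytosolic and 99.97 for mitochondrial synthetases, and in q2 it was 472 and 103. The cytosolic enzyme had the higher level per kb in 12 of 15 pairings in q1 and in 13 in q2. Mars stood 8.92-fold and Nars 7.99-fold above their mitochondrial counterparts in q1. The figure for Mars depends on the length used, 3065 bases against 11294 for Mars2, since their fragments in q1 were 1148 and 475. Tars lay below Tars2 in both columns, at 0.60 and 0.77 of its level per kb.

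Lars2 and Vars had levels apart from those of the other members. Lars2 had 2956 fragments per kb in q1 and 2891 in q2, which was 33.2 and 30.2 times the median of the other mitochondrial synthetases, whose levels ran from 42.0 to 464 in q1. This gene alone held 62.1% and 63.2% of the fragments of its group. Whether fragments from similar sequence elsewhere add to the Lars2 level was not tested. Vars had 2277 and 2001 fragments per kb, 5.22 and 4.25 times the median of the other cytosolic enzymes, which in q1 lay between 162 (Cars) and 782 (Dars). Neither level moved the medians of the ratios much: without Vars the cytosolic median was 0.06, and without Lars2 the mitochondrial median was -0.04.

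**Figure D3:**
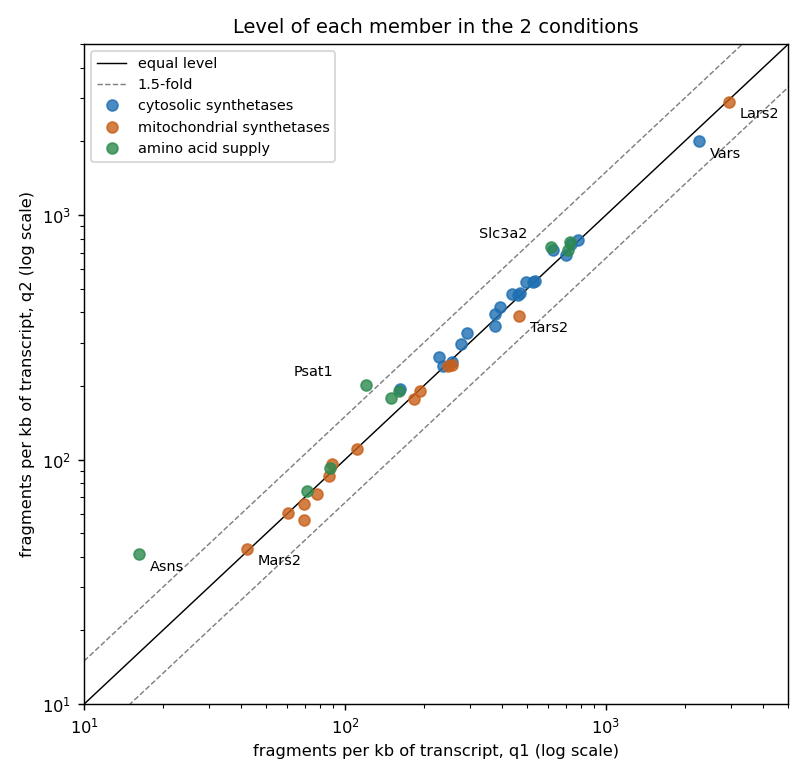
Fragments per kb of transcript in q1 (horizontal) and q2 (vertical), both on log axes, for each of the 43 genes; the solid line marks equal levels and the dashed lines 1.5-fold. Lars2 and Vars stand at the top near the line of equal levels, and Asns and Psat1 lie above the upper dashed line.

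The genes of amino acid supply stood farther toward q2 than either class of synthetase. All 8 above the minimum were higher in q2, as were 50.2% of all genes. Their median log2 ratio was 0.16 (0.23 over 9 genes with a minimum of 20 fragments), with a range from 0.01 to 0.75. Of the 8, 3 exceeded their SD, which 19.5% of all genes did. Of these 8, 1 was at least 1.5-fold higher in q2. Over the 42 members that is also the count, and a share no larger than the 3.39% of all genes is not a result about the set. No member above the minimum reached 2-fold, as 1.84% of all genes did toward q2 and 0.438% toward q1. Plasma cell, germinal center and cell cycle markers were higher in q2 as well, by medians of 1.02, 4.25 and 1.77. The summed T cell markers were 1081 fragments in q1 and 1544 in q2, with Cd28, which plasma cells also express, at 30.3 and 165 and the defining genes Cd3e at 22.8 and 36.4 and Cd4 at 44.4 and 63.6. The macrophage and monocyte markers, 6 of 8 higher in q1, summed to 1604 and 1093; Slc40a1, the iron exporter, stood at -1.49 ± 0.39 and the monocyte gene Ly6c2 at 1.79 ± 0.38. The part of these cells in the amino acid result was not tested.

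Serine synthesis runs through Phgdh, Psat1 and Psph, and the middle enzyme was the one that differed. Psat1, phosphoserine aminotransferase (chromosome 19, 15904678 to 15947337), had 314 ± 39.0 fragments in q1 and 530.0 ± 58.1 in q2. Its ratio was 0.75 ± 0.24, or 1.69-fold, with an exact counting interval of 0.55 to 0.96 on the log2 scale, and by size it ranked 337 of the 9582 genes. Phgdh, the first enzyme of the path, had 1378 and 1467 fragments, at 0.09 ± 0.19. Psph, the last enzyme, had 252 and 265 fragments, at 0.07 ± 0.27. Psat1 thus stood apart from the enzymes before and after it, which were within their SD.

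Asns, asparagine synthetase (chromosome 6, 7675169 to 7693254), was scarce: 32.8 ± 9.11 fragments in q1 and 82.5 ± 16.86 in q2, below the minimum in both. Its log2 ratio of 1.31 ± 0.49, (counting interval from 0.73 to 1.96) was the farthest from 0 of the 43 genes. Per kb it was also the lowest member, at 16.3 fragments in q1 and 40.9 in q2. It lies just outside the minimum of 100 fragments; the nearest member above it is Pars2, with 185 in q2.

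Slc7a5 and Slc3a2 encode the light and heavy chain of the LAT1 transporter, which carries leucine and other large neutral amino acids into lymphocytes. Slc7a5 held 527 fragments in q1 against 627 in q2, at 0.25 ± 0.22. Slc3a2, also known as CD98 and shared with other light chains, had 1735 and 2085, at 0.27 ± 0.18. The chains thus had nearly the same ratio, each just beyond its SD. Of the folate enzymes, Mthfd2, the mitochondrial methylenetetrahydrofolate dehydrogenase of proliferating cells, had 337 and 396 fragments, at 0.23 ± 0.24. Shmt1 and Shmt2, the cytosolic and mitochondrial enzymes that split serine into glycine and a one-carbon unit, were level, with 204 and 212 fragments at 0.05 ± 0.29 and with 1635 and 1650.2 at 0.01 ± 0.18.

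ATF4 pairs with C/EBP proteins on a composite element, here searched as TGATGNAAN on both strands of RefSeq promoters (GRCm38.p6, 250 bases before to 50 after the start site). Promoters were found for 34 of the 43 members. The letters occurred in 5 of 13 cytosolic synthetases, 0 of 13 mitochondrial synthetases and 1 of 8 supply genes, and in 4.50% of all 27025 genes. The matches are shown because they tell which members carry these letters near their start; the match is in capitals, and genes on the minus strand are printed as transcribed, 5′ to 3′.
Asns (chr6:7693203-7693262, minus strand): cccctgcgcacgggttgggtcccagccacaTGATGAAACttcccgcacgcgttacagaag
Aars (chr8:111033699-111033758, plus strand): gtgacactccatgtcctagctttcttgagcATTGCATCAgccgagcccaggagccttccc
Gars (chr6:55037940-55037999, plus strand): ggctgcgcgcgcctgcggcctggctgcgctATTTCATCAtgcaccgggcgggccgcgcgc
Iars (chr13:49682106-49682149, plus strand): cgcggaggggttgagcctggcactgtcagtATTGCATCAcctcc
Tars (chr15:11399645-11399704, minus strand): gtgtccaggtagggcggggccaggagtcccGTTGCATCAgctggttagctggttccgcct
Yars (chr4:129189876-129189922, plus strand): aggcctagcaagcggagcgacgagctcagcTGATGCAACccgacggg

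In Asns the match begins 23 bases before the start site, in Tars 16, in Gars 31 and in Aars 113 bases before it, and in Yars and Iars it begins 3 and 6 bases past it. Asns and Yars hold the letters in the direction of transcription and the other 4 on the opposite strand. Aars has a further match, TTTTCATCA, 8 bases past the start. All 6 genes were higher in q2, from 0.02 ± 0.19 in Aars to 0.19 ± 0.21 in Yars and 1.31 ± 0.49 in Asns, which is below the minimum. So were 16 of all 20 cytosolic synthetases, all 8 supply genes above the minimum and 50.2% of all genes. Among the 5 synthetases with a match no ratio exceeded its SD. Psat1, with the largest ratio above the minimum, has no match in its windows. The E-box CACGTG, bound by MYC and other factors, occurred in 4 of 13 cytosolic synthetases (Aars, Farsb, Iars and Tars), in 1 of 13 mitochondrial ones (Ears2), in 0 of 8 supply genes and in 8.09% of all genes; it does not overlap the element above. A match is a description of the letters and not evidence of binding.

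Cytosolic synthetases were also divided by whether they are often listed as ATF4 targets, a list made from general knowledge for this comparison. The 13 listed enzymes (Aars, Cars, Eprs, Gars, Iars, Lars, Mars, Nars, Sars, Tars, Vars, Wars and Yars) had a median of 0.10 and a range from -0.19 (Vars) to 0.26 (Cars), with 11 higher in q2, and summed to 25492 fragments in q1 against 25293 in q2. The other 7 had a median of 0.02 and a range from -0.04 to 0.12, with 5 higher in q2, and summed to 9549 against 9671. Of all 20 cytosolic synthetases 16 were higher in q2, and of all genes 50.2%. Medians and sums thus differ in order. Vars alone held 9421 of the listed enzymes' fragments in q1 and 8276 in q2, so their sums depend largely on this gene. No difference between these groups was tested.

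Atf4 mRNA itself was level, with 4593 fragments in q1 against 4656 in q2, at 0.02 ± 0.18. Among 15 genes of the integrated stress response above the minimum, 7 stood toward q2 and 8 toward q1, and the median was -0.01. All genes divided 50.2% to 49.8%. Of the 15, 2 were at least 1.5-fold higher in q2, a size that 3.39% of all genes reached. Herpud1, an endoplasmic reticulum protein of the degradation pathway, had 1475 and 2434 fragments, at 0.72 ± 0.18. Atf5, a transcription factor related to ATF4, had 51.0 and 107 fragments, at 1.05 ± 1.26, within its SD. Cebpg, a partner of ATF4, stood at 0.38 ± 0.20. In the other direction stood Ppp1r15a, the phosphatase subunit that reverses eIF2 phosphorylation, with 9481 and 6678 fragments at -0.51 ± 0.19. Below the minimum, the ATF4 targets Chac1 (8.20 and 35.6 fragments) and Trib3 (7.88 and 11.5) stood at 1.99 ± 0.72 (counting interval from 0.9998 to 3.42) and 0.50 ± 0.80 (from -0.88 to 2.07). Of the other listed stress genes below it, Jdp2 (62.7 and 50.9) stood toward q1, at -0.30 ± 0.45. Nupr1 had 1.03 and 1.15 fragments, and Vldlr was at 0 in both columns. Ddit3, which encodes CHOP, stood at -0.19 ± 0.44. The stress genes above the minimum thus lay on both sides of 0.

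Other genes of amino acid and folate metabolism were centred near 0. Of 13 other amino acid transporters, 4 stood toward q2 and 9 toward q1, the median was -0.07 and none reached 1.5-fold. Slc36a4 had the largest absolute ratio, at -0.30 ± 0.37, followed by the lysosomal arginine sensor Slc38a9 at -0.25 ± 0.18, the cationic and neutral amino acid exporter Slc7a7 at -0.20 ± 0.54 and the arginine and lysine importer Slc7a1 at -0.18 ± 0.18. The glutamine transporters Slc1a5, Slc38a1 and Slc38a2 stood at 0.06 ± 0.18, 0.10 ± 0.18 and 0.15 ± 0.18. Of 12 other enzymes of amino acid synthesis, 6 were higher in each column, led by Aldh18a1, the first enzyme of proline synthesis, at 0.25 ± 0.20. Pycr1, the mitochondrial enzyme that completes that path, was below the minimum, with 7.68 fragments in q1 and 43.5 in q2. Ass1, of arginine synthesis, stood at 0.11 ± 0.88 and Bcat2, a branched-chain aminotransferase, at -0.11 ± 0.23.

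Folate one-carbon enzymes outside the set had 5 of 13 higher in q2, with a median of -0.02. Gcsh, of the glycine cleavage system, stood at -0.34 ± 0.30 and Gart, of purine synthesis, at -0.15 ± 0.18. Further synthetases and tRNA charging factors had 6 of 15 higher in q2 and a median of -0.01. The threonyl relative Tarsl2 stood at 0.41 ± 0.33, the mitochondrial valyl enzyme Vars2 at -0.21 ± 0.21, and Gatc and Qrsl1, subunits of the amidotransferase that completes mitochondrial glutaminyl-tRNA, at 0.15 ± 0.22 and -0.11 ± 0.20.

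**Figure D4:**
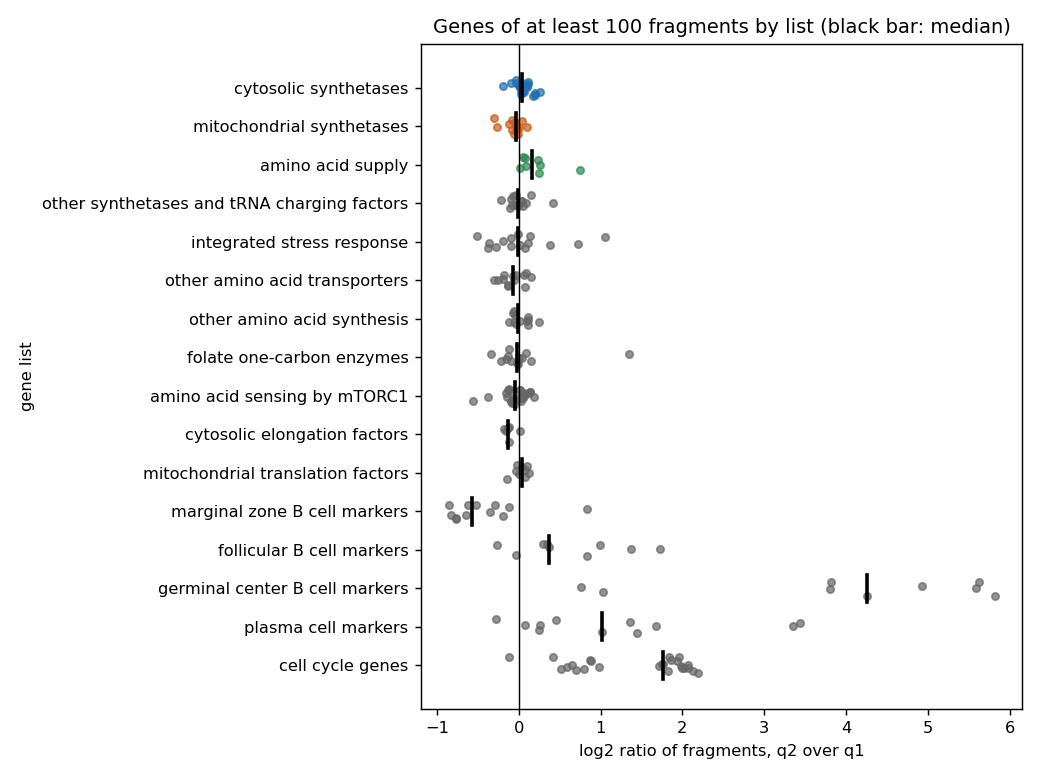
Log2 ratio of fragments, q2 over q1, of every gene with at least 100 fragments in each list; black bars mark the median and vertical scatter has no meaning. The synthetase and pathway lists centre near 0, amino acid supply at 0.16, and the germinal center, plasma cell and cell cycle lists lie far to the right.

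Some members share sequence with other genes, so their counts are less certain. Of the 31-base words in the longest Phgdh transcript, 74.1% also occur in transcripts of 26 other genes, 59.0% in the copy Gm7901. The shares were 36.8% for Iars2, with Rab3gap2 on the opposite strand, 22.7% for Aars, with Exosc6 on the same strand, 17.7% for Iars, mainly with Gm4849, and 11.0% for Farsb, with Sgpp2. For Lars2 and Vars, the members of highest level, the shares were 1.09%, with 2 other genes, and 1.05%, with Gm14780. For Psat1 the share was 3.56%, and for Asns, Nars, Cars and Slc7a5 no word was shared, although 211 exonic bases of Cars lie opposite the pseudogene Gm15580. Since the strand setting is not given, fragments of genes that overlap on opposite strands cannot be told apart.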

How the data were processed

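Per the labels' protocols, Trizol-extracted total RNA went into Illumina TruSeq RNA libraries. The submitters' processing notes name mm10 and the tools Cuffdiff 2.2.1, TopHat2 2.0.14 and cutadapt 1.8.1. Gene annotation, strand setting and scaling were not given in the sources used here. The authors deposited 1 estimated count of fragments per gene and condition, with its variance, per the file headers. Depth per library is unknown.

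Log2 ratios (q2 over q1, pseudocount 1) were computed for genes of at least 100 fragments in the higher column, with its SD to first order from the deposited variances. With 1 value per condition there was no test. Exact (Clopper-Pearson) 95% intervals treat estimated fragments as counts and cover counting error only. Every member is reported. Of the other lists, the genes of largest absolute ratio are named, up to 4 per list and 2 per marker list; some of these are not reported here. Others, such as Atf4, Chac1, Pycr1, Slc38a1, Slc38a2 and the T cell genes Cd3e and Cd4, were picked after their values were seen. Members and lists were chosen with earlier results of these data known.

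Positions and transcript lengths (longest transcript) came from GENCODE M21 on GRCm38, the assembly called mm10 in the notes, in which all 43 members were found. Promoters came from RefSeq on GRCm38.p6. The alternatives were other minimums, pseudocounts, scalings and size rules, a requirement of 2 deposited SD and an adjustment by a linear fit on GC content, transcript length and mean expression. The calculations were tested on simulated data, with Python 3.11.15, NumPy 2.4.6, pandas 2.3.3 and SciPy 1.17.1.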

Additional observations from a re-analysis of the deposited data

How the results depend on the processing

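No paired analysis was possible because each condition has a single pooled value without replicate numbers; for the same reason the tests, normalizations and left-out replicates planned for values per library were not run. The count of members at least 1.5-fold higher in q2, which is 1 (Psat1), became 2 with a minimum of 20 fragments, which admits Asns, and 0 with a 2-fold rule. That toward q1 was 0 under every setting run. The 27 of 42 members higher in q2 became 29 with equal column totals, and 1 when a ratio above 2 deposited SD was required. The medians kept their sign under every setting that gave one: 0.05 to 0.09 for cytosolic synthetases, -0.06 to -0.02 for mitochondrial synthetases and 0.16 to 0.25 for amino acid supply. Of 281 member ratios listed over the other settings, 279 stayed within the counting interval. Vars (0.0039) and Lars2 (0.07), adjusted for GC content, transcript length and expression, did not. Another minimum leaves a ratio unchanged, and another pseudocount or median scaling shifts it little. Much of this count was therefore fixed in advance and is no measure of robustness. Ratios of 11 members changed sign, none larger than 0.19 in size.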

Other observations

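Genes that act beside the synthetases were also close between the columns. The cytosolic elongation factors, which carry charged tRNA to the ribosome and move it along, had 5 of 6 members higher in q1 and a median log2 ratio of -0.13, and none exceeded its deposited SD. Eef2, the translocase, held 62435 fragments in q1 against 56870.1 in q2, at -0.13 ± 0.27. Eef1g and Eef1b2, subunits of the exchange factor, stood at -0.18 ± 0.19 and -0.16 ± 0.18 and Eef1d, another subunit, at -0.12 ± 0.18. Eif5a was the factor higher in q2, at 0.02 ± 0.18. The mitochondrial translation factors had 6 of 9 members higher in q2 and a median of 0.04, again with none beyond its SD; Mtif2, an initiation factor, stood at -0.14 ± 0.20, Mtif3 at 0.12 ± 0.27, the release factor relative Mtrf1l at 0.11 ± 0.28 and Tsfm at 0.08 ± 0.29.

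Of 27 genes through which mTORC1 senses amino acids, 11 stood toward q2 and 16 toward q1, the median was -0.05 and none reached 1.5-fold. Rragd, a Rag GTPase, held 107 fragments in q1 against 72.5 in q2, at -0.55 ± 0.39, and Nprl3, of the GATOR1 complex that restrains mTORC1, stood at -0.38 ± 0.23. Lamtor5, of the Ragulator complex, stood at 0.19 ± 0.23 and Sesn3, a sestrin, at -0.15 ± 0.18. Mtor itself was level, with 1739 and 1684 fragments.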
